A study of Mus musculus with 24 samples.

Results

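The comparison described here set myeloid progenitor cells cultured for 48 h without estradiol against the same line at 0 h, when the hormone was still present. It used 4 of the 24 libraries of the series, 2 at 48 h and 2 at 0 h, chosen by the hour in each library's name, and every gene row of the count table, 45319 in all. The cells were Lys-GFP-ER-HoxA9 cells, a mouse C57Bl/6 line grown with stem cell factor. By its name the line carries an estrogen receptor fusion of the homeodomain factor HoxA9 and a lysozyme reporter of green fluorescent protein, and both times share these transgenes. Cells at 48 h had been moved out of hormone for that time, and cells at 0 h were still in 0.5 uM beta-estradiol. The line is a culture model, and the labels do not say whether it is 1 clone or whether the 2 libraries of a time came from separate cultures. The p-values below therefore measure only the spread between libraries, which may be technical. The samples formed a course of 10 times from 0 to 120 h, and the other 16 libraries of that course served to estimate this spread; 4 libraries treated with R07 were not used here.

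HoxA9 is a transcription factor that holds myeloid progenitors in an immature, dividing state, and in an estrogen receptor fusion its activity depends on the hormone. Neutrophils mature through promyelocytes, which make the primary (azurophil) granule proteins, then myelocytes, which make the secondary (specific) granule proteins, and then non-dividing stages that make the tertiary granules and chemotactic receptors of the circulating cell. Granule contents are thus set by the stage at which each gene is transcribed, and the factor C/EBP epsilon is needed for the secondary set.

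The withdrawal libraries held between 36661334 and 49601719 reads assigned to genes, with 46139014 and 49601719 at 48 h and 36999089 and 46223117 at 0 h. Levels are given in CPM, a gene's reads relative to the scaled total of its library, for library A and then library B of each time. CPM is not divided by gene length, so levels are compared between times for a gene and never between genes. Reads aligned outside genes made up 4.42% and 5.43% at 48 h and 4.11% and 4.00% at 0 h, and mitochondrially encoded transcripts took 1.12% and 1.17% at 48 h and 0.822% and 0.889% at 0 h. Their part in the results was not tested. In a principal component analysis of the 20 withdrawal libraries, the first component carried 72.4% of the variance and ran with time. The 48 h libraries stood at -1.25 and -8.63 on it, the 0 h libraries at -95.0 and -94.2, and the 120 h libraries at 204.0 and 195.2. On the second component, with 15.6% of the variance, the 48 h libraries had the highest scores of the course, 68.7 and 67.5, against -40.6 and -34.5 at 0 h.

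**Figure D1:**
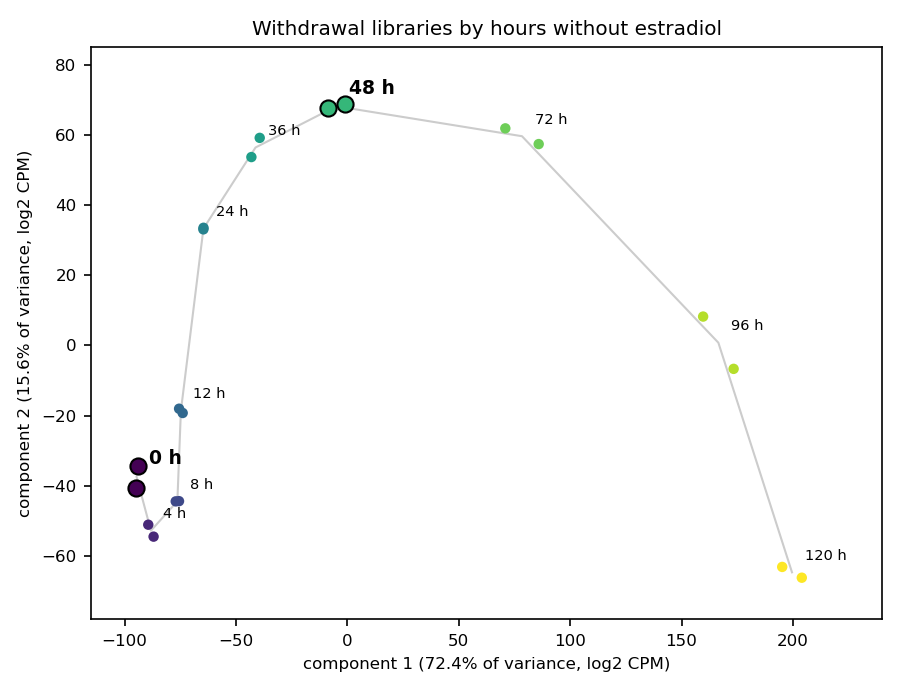
Scores of the 20 withdrawal libraries on the first (x axis) and second (y axis) principal components of log2 CPM, coloured and labelled by hours without estradiol, with the 48 h and 0 h libraries outlined and a line through the mean of each time. The 48 h pair lies between the 0 h and 120 h pairs on the first component (-1.25 and -8.63), nearer to the 0 h pair. It is at the top of the second (68.7 and 67.5).

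Of 14615 genes with enough counts to test, 7683 differed between 48 h and 0 h at an adjusted p below 0.05 in edgeR's quasi-likelihood test, which is 52.6% of those tested. Of these, 3769 were higher at 48 h (25.8%) and 3914 were lower (26.8%). A change of at least 2-fold was found for 1613 genes that rose (11%) and 1304 that fell (8.92%), and one of at least 8-fold for 458 and 359 genes. The libraries of the 2 times did not overlap for 74.1% of genes tested, so a lack of overlap alone marked most genes. The median log2 change over all genes tested was 0.00.

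The next values are of called genes whose log2 CPM averaged 3 or more over the course; genes below that level, such as Epx and Prom1, are given with their groups. The 12 largest rises at that level included Clec4a2, Tgm2, Prg2, Hsd11b1, Stfa1 and Mgst1. Clec4a2, a C-type lectin receptor of myeloid cells on chromosome 6 (chr6:123106428-123143999, GRCm38), had 178 and 158 CPM at 48 h, against 0.0996 and 0.384 CPM at 0 h. Its log2 change was 9.34 ± 0.26 (SE; adjusted p = 1.9e-16, edgeR). Tgm2, a transglutaminase, had 572 and 449 CPM at 48 h, against 1.12 and 1.46 CPM at 0 h (log2 change 8.61). Hsd11b1, which regenerates active glucocorticoid, had 135 and 104 CPM at 48 h, against 0.373 and 0.566 CPM at 0 h. Each of these genes was below 1.5 CPM in both libraries at 0 h and above 100 CPM in both at 48 h. Mgst1, a microsomal glutathione transferase, Stfa1, a cysteine protease inhibitor of the stefin A family, C3, the central complement component, and Siglece, an inhibitory lectin of myeloid cells, rose by log2 changes of 7.85, 7.95, 7.02 and 6.75. Stfa1 has near-identical neighbours, between which reads could be split, so its level is uncertain.

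The 12 deepest falls at that level included Flt3, the deepest, and Mmp14, Sdc1 and Angpt1, while Ebf1, Rag1 and Gas6, with fewer reads on average, fell further and are given with their groups. Mmp14, a membrane-bound matrix protease, had 0.478 and 0.406 CPM at 48 h, against 61.1 and 51.2 CPM at 0 h (log2 change -6.98 ± 0.39, SE). Sdc1, the cell surface proteoglycan syndecan-1, had 6.05 and 7.61 CPM at 48 h, against 386 and 331 CPM at 0 h (log2 change -5.71). Angpt1, the secreted ligand of the Tie2 receptor, had 5.95 and 9.08 CPM at 48 h, against 335 and 376 CPM at 0 h (log2 change -5.56). The 2 times were far apart for each of these genes. Itga9, an integrin chain, Angptl2, an angiopoietin-like secreted protein, Slc45a3, a solute carrier, Lgmn, the lysosomal protease legumain, and Car2, a carbonic anhydrase, fell by 5.38, 5.62, 5.41, 5.22 and 5.09 on the log2 scale.

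**Figure D2:**
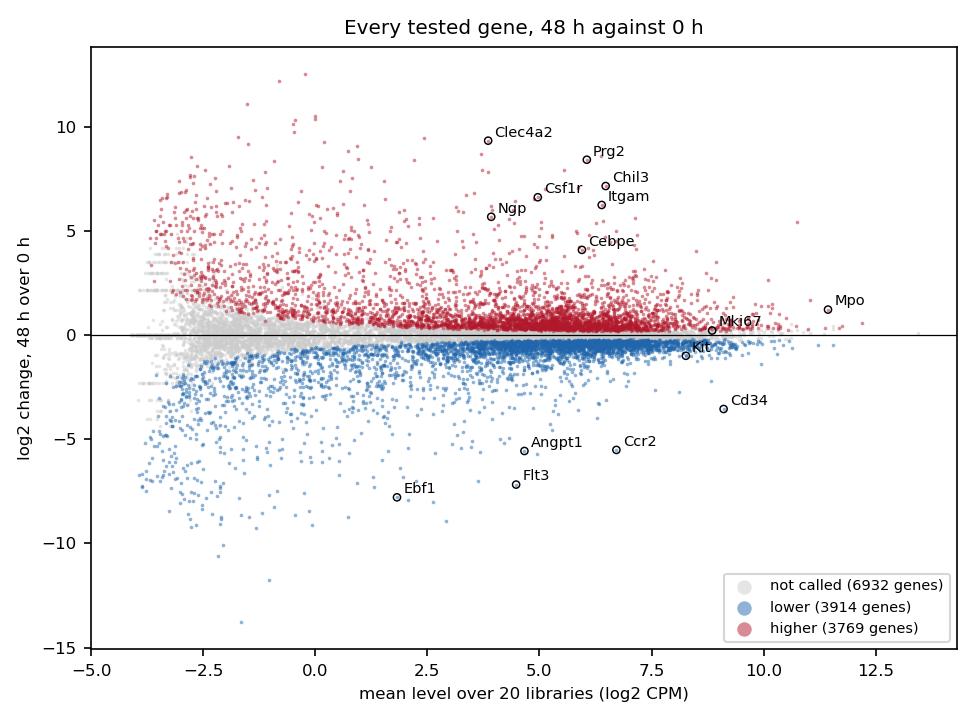
Log2 change at 48 h over 0 h (y axis) against the mean level over the 20 withdrawal libraries in log2 CPM (x axis) for the 14615 genes tested, red where called higher, blue where called lower and grey where not called, with 15 genes circled and named. Among the circled genes, Clec4a2 (9.34) and Prg2 (8.43) stand at the top, Ebf1 (-7.79) and Flt3 (-7.17) at the bottom, and Mki67 (0.22) near 0.

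The markers of each stage were compared with the description of 48 h as an intermediate precursor state that still proliferates. Of 7 promyelocyte markers, all but Ctsg were called higher at 48 h. Of 5 progenitor markers, Kit, Cd34, Flt3, Meis1 and Myb, all were called lower, although Kit still had 361 and 396 CPM at 48 h, against 785 and 717 CPM at 0 h. Markers of mature neutrophils were present at low levels or near 0: Retnlg had 0.0832 and 0.0193 CPM at 48 h, against 0.0249 and 0.0607 CPM at 0 h, and Ly6g, the surface antigen of mature mouse neutrophils, had 0.0208 and 0.155 CPM at 48 h and no read at 0 h. Of the cycling markers, Mki67, Top2a and Pcna were not called, and Ccnb1 and Mcm2 were lower. Cell division itself was not measured in these libraries, so the description rests here on transcript levels only.

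Among transcription factors of the myeloid lineage, 16 of 28 members tested rose, 5 fell and 7 were not called, with a median log2 change of 0.80. Cebpe, which encodes C/EBP epsilon (chr14:54710360-54712174), had 172 and 132 CPM at 48 h, against 8.29 and 9.41 CPM at 0 h. Both 48 h libraries were far above either 0 h library, and the log2 change was 4.10 ± 0.16 (SE; adjusted p = 2.8e-14, edgeR). Cebpe averaged 120 CPM at 24 h, and the change between 48 h and 24 h was not called. Spi1, encoding PU.1, a master regulator of myeloid fate, had 285 and 233 CPM at 48 h, against 82.2 and 79.3 CPM at 0 h (log2 change 1.68 ± 0.12). Irf4 had 16.7 and 14.5 CPM at 48 h, against 0.249 and 0.364 CPM at 0 h, and Irf8, its relative with a role in monocyte and dendritic cell fate, had 32.1 and 28.8 CPM, against 19.5 and 17.7 CPM. Both interferon regulatory factors rose, with log2 changes of 5.63 and 0.71.

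Cebpa, the founding factor of the granulocyte lineage, had 130 and 134 CPM at 48 h, against 140 and 138 CPM at 0 h, and was not called (log2 change -0.07 ± 0.10, SE). Cebpa averaged 217 CPM at 24 h and was lower at 48 h than at 24 h, with a log2 change of -0.72. Gfi1, a repressor needed for granulocyte maturation, had 250 and 236 CPM at 48 h, against 175 and 178 CPM at 0 h (log2 change 0.46), a call that was lost without 48 h library A (adjusted p = 0.0523, edgeR). The 5 factors that fell were Cebpg, Runx3, Klf4, Vdr and Egr1. Egr1, an immediate early factor used in monocyte differentiation, had 0.0624 and 0.155 CPM at 48 h, against 3.46 and 3.50 CPM at 0 h. Klf2, a quiescence-associated factor of lymphocytes and myeloid cells, had 1.81 and 1.20 CPM at 48 h, against 0.174 and 0.223 CPM at 0 h.

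The genes of the hormone-dependent fusion were read as well. Hoxa9 had 297 and 280 CPM at 48 h, against 148 and 129 CPM at 0 h (log2 change 1.06 ± 0.10, SE), and Esr1, the estrogen receptor gene, had 90.4 and 93.0 CPM, against 45.6 and 42.2 CPM (log2 change 1.06 ± 0.09, SE). Reads of a transgene and of the mouse gene cannot be told apart in these counts. Meis1, a partner of Hoxa9 in progenitors, had 5.38 and 6.99 CPM at 48 h, against 27.5 and 26.5 CPM at 0 h (log2 change -2.12 ± 0.13, SE).

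Primary granule genes were higher as a group. Of 15 members, 13 rose, none fell, and Ctsg and Lyz2 were not called, with a median log2 change of 1.25. Mpo, myeloperoxidase (chr11:87793581-87804413), had 9634 and 8215 CPM at 48 h, against 3921 and 3685 CPM at 0 h (log2 change 1.23 ± 0.23, SE). Elane, neutrophil elastase, had 95.9 and 65.6 CPM at 48 h, against 2.69 and 2.85 CPM at 0 h (log2 change 4.86 ± 0.27, SE). Ms4a3, a membrane protein of granulocyte and monocyte progenitors, had 1024 and 856 CPM at 48 h, against 44.6 and 62.0 CPM at 0 h (log2 change 4.14 ± 0.22, SE). No library of one time reached the level of the other for these genes. Prtn3, proteinase 3, and Prss57, a related serine protease, rose by log2 changes of 2.16 and 3.25, and Arsb, the lysosomal arylsulfatase B, by 2.67. Ctsg, cathepsin G, was already high, with 2003 and 1832 CPM at 48 h, against 1561 and 1656 CPM at 0 h, and its log2 change of 0.25 ± 0.17 (SE) was not called with the filter on low counts, though it was without that filter (adjusted p = 0.0255, edgeR).

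The secondary granule genes rose as well, from low starting levels. Of 18 members, 15 rose, none fell and 3 were not called, with a median log2 change of 4.57. Chil3, a chitinase-like granule protein (chr3:106147554-106167564), had 589 and 433 CPM at 48 h, against 3.06 and 4.01 CPM at 0 h (log2 change 7.17 ± 0.25, SE). Ngp, neutrophilic granule protein (chr9:110419747-110423012), had 46.3 and 26.2 CPM at 48 h, against 0.498 and 0.870 CPM at 0 h (log2 change 5.69 ± 0.35, SE). Fcnb, ficolin B, had 81.4 and 49.9 CPM at 48 h, against 1.02 and 0.991 CPM at 0 h (log2 change 6.02 ± 0.24, SE). In each of these genes library A of 48 h was above library B, and both were far above 0 h. Ltb4r1, the leukotriene B4 receptor, had 159 and 132 CPM at 48 h, against 1.42 and 1.72 CPM at 0 h. Lrg1, a leucine-rich glycoprotein of neutrophil granules, had 3.91 and 2.53 CPM at 48 h and no read at 0 h, so it was at least 95.4-fold higher, taking 3 counts over both 0 h libraries as the floor. Reads of Chil3 could be shared with near-identical chitinase-like genes, and its level is uncertain to that degree.

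Other members of the secondary set were still at a small part of their later levels. Ltf, lactoferrin, had 2.33 and 1.80 CPM at 48 h, against 0.747 and 0.708 CPM at 0 h (log2 change 1.50 ± 0.42, SE), and averaged 4885 CPM at 120 h. Camp, the precursor of the cathelicidin peptide, had 1.27 and 0.773 CPM at 48 h, against 0.0249 and 0.0607 CPM at 0 h, and averaged 181 CPM at 120 h. Mmp8, neutrophil collagenase, had 7.57 and 6.72 CPM at 48 h, against 5.63 and 5.50 CPM at 0 h, and was not called (log2 change 0.36 ± 0.22, SE), while without the filter on low counts, or with only the 2 times in the fit, it was.

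The stretches upstream of these genes are shown because 15 of the 18 secondary granule genes were called higher at 48 h, as was Cebpe. The letters TTGCNNAA, a form of the sequence that C/EBP factors prefer, were searched on both strands in the 250 bases before each gene's start, where the opposite strand reads TTNNGCAA. RefSeq gave promoters (GRCm38.p6) for 15 of the 18 genes, and 6 of these 15 genes held a match, 40%. Of 32841 promoters of the same length, 9.57% held a match. The first share counts genes and the second counts promoters, the list was chosen with results of these data known, and the difference was not tested. The 6 genes were Fcnb, Lcn2, Slpi, Mmp8, Ngp and Ltf, with 8 matches in all. Of these, 2 are not shown, among them the only match of Lcn2, because the 30 bases that hold the match overlapped an annotated exon. A match is a description of letters and does not show binding. The other 6 matches follow as 30 bases on the gene's strand, 5′ to 3′, with the match in capitals.
Ngp, chr9:110419659-110419688, plus strand: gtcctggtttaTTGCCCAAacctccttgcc
Ltf, chr9:111019206-111019235, plus strand: aggcaggcctaTTGGGCAAtagggtggggc
Mmp8, chr9:7558399-7558428, plus strand: ttaggcagaagTTGCTCAAgatgtagcttt
Fcnb, chr2:28084983-28085012, minus strand: ttttaggtctcTTGTGCAAccagaggcctc
Fcnb, chr2:28085095-28085124, minus strand: caaggcaggccTTTTGCAAacagaggtgcc
Slpi, chr2:164356728-164356757, minus strand: gaatttgtaTTGAGCAAtaggttagagttt
The genes of this group did not change alike: Ngp and Fcnb rose by log2 changes of 5.69 and 6.02, Ltf by 1.50, and Mmp8 was not called. Slpi, a secreted inhibitor of leukocyte proteases, had 397 and 336 CPM at 48 h, against 13.4 and 14.2 CPM at 0 h (log2 change 4.73). Chil3, Camp and Ltb4r1 rose too and held no match in this window.

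**Figure D3:**
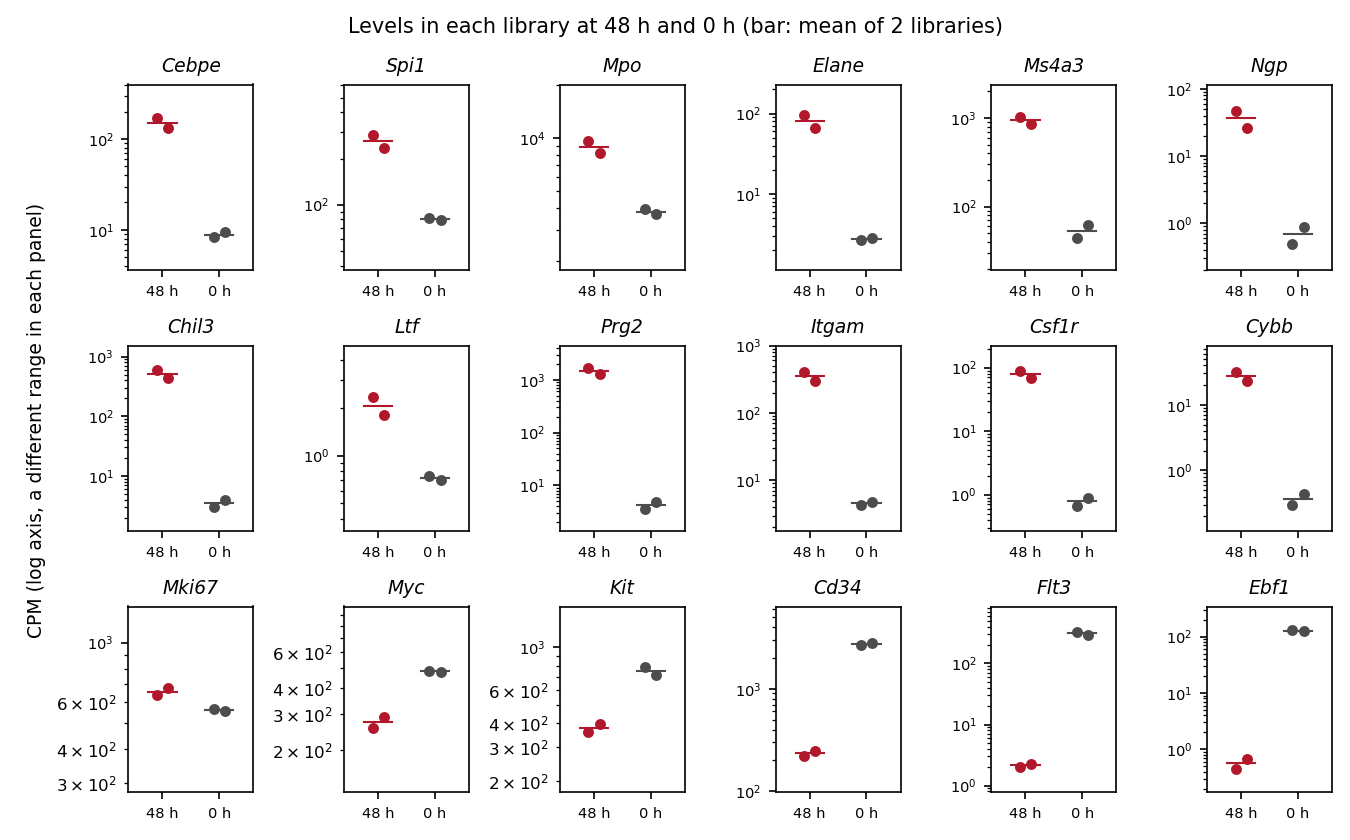
Level in CPM (log axis, with its own range in each panel) of 18 genes in each library at 48 h (red, left) and 0 h (grey, right), with a bar at the mean of 2 libraries. Granule, receptor and regulator genes of the first 12 panels are higher in both 48 h libraries, Kit, Myc, Cd34, Flt3 and Ebf1 are lower in both, and Mki67 differs little (635 and 675 CPM against 564 and 557 CPM).

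Tertiary granule and mature neutrophil genes mostly rose, 16 of 24 tested, while 3 fell and 5 were not called. Their median log2 change was 2.24, or 2.08 with genes without a read at either time set at their bound. S100a8 and S100a9 encode the subunits of calprotectin. S100a8 had 27.5 and 14.7 CPM at 48 h, against 0.597 and 1.11 CPM at 0 h, and S100a9 had 5.90 and 3.90 CPM, against 0.846 and 1.31 CPM. Cxcr2, a receptor for neutrophil-attracting chemokines, had 12.4 and 10.9 CPM at 48 h, against 1.12 and 1.29 CPM at 0 h. All of these genes rose (log2 changes 4.58, 2.15 and 3.26), but they averaged 3986, 5595 and 248 CPM at 120 h. The 3 genes that fell, Trem1, Clec4d and Clec4e, all encode receptors of the innate response.

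The summed level of the eosinophil lineage list was the highest of the course at 48 h, and Prg2 and Prg3 made up most of it. Of 12 in the list, 10 had enough counts and all 10 rose. The median log2 change was 7.39 with fitted values, and 5.61 with 3 genes without a read at 0 h set at their bound. Prg2, the eosinophil major basic protein (chr2:84980461-84983632), had 1637 and 1294 CPM at 48 h, against 3.66 and 4.79 CPM at 0 h (log2 change 8.43 ± 0.18, SE; adjusted p = 5.8e-18, edgeR). Prg3, a second major basic protein gene beside it, had 722 and 641 CPM at 48 h, against 4.16 and 5.81 CPM at 0 h (log2 change 7.09 ± 0.23, SE). Epx, eosinophil peroxidase, had 16.3 and 11.1 CPM at 48 h and no read at 0 h, at least 406-fold higher. Ear6, an eosinophil-associated ribonuclease with close paralogs, had 7.13 and 5.39 CPM at 48 h and no read at 0 h, at least 186-fold higher. Gata1, a factor needed for the eosinophil lineage, had 2.66 and 2.69 CPM at 48 h, against 0.199 and 0.425 CPM at 0 h (log2 change 3.04). In contrast to Prg2, which averaged 137 CPM at 24 h, Gata1 averaged 3.78 CPM at 24 h and did not change beyond the threshold between 24 h and 48 h.

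The eosinophil genes did not all peak at 48 h. Prg3 was higher at 36 h, with 874 and 702 CPM, and Ear6 at 72 h, with 8.23 and 8.69 CPM. Ear2 had 9.11 and 8.27 CPM at 48 h and 113 and 90.4 CPM at 96 h. Most did not keep their 48 h levels to the end of the course. Between 48 h and 120 h, 8 of the 10 fell, Ear2 rose and Siglecf was not called. Prg2 had 42.6 and 38.6 CPM at 120 h, a log2 change of -5.17 over 48 h. Epx had 0.243 and 0.167 CPM at 120 h. In bulk libraries a change in the number of cells of a type and a change in RNA per cell cannot be told apart. Prg2 and Prg3 are similar in sequence, which may have moved reads between them.

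The phagocyte oxidase, which makes superoxide at the phagosome, rose in 7 of 8 members, and Rac1 was not called. Cybb, the catalytic membrane subunit, had 31.5 and 22.6 CPM at 48 h, against 0.299 and 0.445 CPM at 0 h (log2 change 6.15 ± 0.32, SE). Cyba, its membrane partner, had 268 and 182 CPM at 48 h, against 59.0 and 56.5 CPM at 0 h (log2 change 1.96), and Ncf1, a cytosolic subunit, had 520 and 444 CPM, against 158 and 157 CPM (log2 change 1.61). The membrane subunit Cybb was therefore near 0 at 0 h while its partners were already read. Cybb averaged 0.424 CPM at 24 h, so its rise up to 48 h lay after 24 h (log2 change 6.00). It rose further after 48 h, to 635 and 433 CPM at 72 h and 2839 and 2376 CPM at 120 h. Hvcn1, the voltage-gated proton channel, rose by 2.53.

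Lysosomal genes rose in 24 of 28 members, with Ctsl lower and Ctss, Gaa and Atp6v1h not called; their median log2 change was 0.98. Ctse, cathepsin E, had 19.9 and 16.3 CPM at 48 h, against 0.249 and 0.303 CPM at 0 h (log2 change 6.01 ± 0.25, SE). Ctsb, cathepsin B, had 462 and 399 CPM at 48 h, against 108 and 105 CPM at 0 h (log2 change 2.01). Neu1, a sialidase, and Lipa, the acid lipase, rose by 2.24 and 1.91. Ctss, cathepsin S, had 3.70 and 3.57 CPM at 48 h, against 3.19 and 2.67 CPM at 0 h, and then averaged 3105 CPM at 120 h.

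Surface receptors of the phagocyte also rose. Itgam, the CD11b integrin chain (chr7:128062640-128118491), had 399 and 302 CPM at 48 h, against 4.38 and 4.77 CPM at 0 h (log2 change 6.26 ± 0.18, SE), and its partner Itgb2 had 284 and 215 CPM, against 28.8 and 26.0 CPM (log2 change 3.19 ± 0.14, SE). Both chains were higher in every 48 h library than in any 0 h library. Of 14 integrin and adhesion genes, 8 rose and 6 fell. Those that fell were Itgax, Itgal, Itga4, Itgb1, Itga6 and Cd9, chains of other integrins and a tetraspanin. Of 7 Fc receptor genes tested, 6 rose and Fcer1g, the shared signalling chain, was not called. Fcgr3 had 278 and 258 CPM at 48 h, against 79.3 and 83.9 CPM at 0 h, and Fcgr2b, the inhibitory receptor, had 203 and 212 CPM, against 48.9 and 50.5 CPM.

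Pattern recognition receptors rose in 17 of 20 members, none fell, and the median log2 change was 2.97. The endosomal receptors for nucleic acids were among them: Tlr7 had 4.03 and 2.80 CPM at 48 h, against 0.0249 and 0.162 CPM at 0 h, and Tlr13 had 1.58 and 1.91 CPM, against 0.0249 and 0.0607 CPM. Of 14 chemoattractant receptors tested, 9 rose, 2 fell, or 1 without 0 h library B or 48 h library A, and 3 were not called. Ccr1, a receptor for inflammatory chemokines, had 40.2 and 37.2 CPM at 48 h, against 0.821 and 1.01 CPM at 0 h (log2 change 5.38). Ccr2, the receptor by which monocytes leave the marrow, went the other way, with 16.1 and 17.8 CPM at 48 h, against 745 and 798 CPM at 0 h (log2 change -5.51 ± 0.16, SE). Ccr2 was higher again at 120 h, where it averaged 519 CPM.

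Of 22 growth factor and cytokine receptors, 13 rose, 6 fell and 3 were not called. Csf3r, the receptor of granulocyte colony-stimulating factor, had 92.1 and 74.0 CPM at 48 h, against 32.6 and 31.8 CPM at 0 h (log2 change 1.37 ± 0.14, SE). Csf1r, the receptor of macrophage colony-stimulating factor, had 87.5 and 69.3 CPM at 48 h, against 0.672 and 0.890 CPM at 0 h (log2 change 6.63 ± 0.29, SE). Csf2rb2, a beta chain used by the interleukin-3 receptor in mice, rose by 3.51. Kit, the receptor of the stem cell factor in the medium, fell by 0.99 on the log2 scale; it averaged 390 CPM at 24 h, and the change between 48 h and 24 h was not called.

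Of 26 progenitor markers and regulators tested, 18 fell, 4 rose and 4 were not called, with a median log2 change of -1.15. Flt3, a receptor kinase of early progenitors (chr5:147330741-147400489), had 2.00 and 2.30 CPM at 48 h, against 332 and 290 CPM at 0 h (log2 change -7.17 ± 0.22, SE; adjusted p = 6.9e-16, edgeR). Cd34, a sialomucin of stem and progenitor cells, had 222 and 247 CPM at 48 h, against 2677 and 2784 CPM at 0 h (log2 change -3.54 ± 0.10, SE). The libraries of the 2 times were far apart for both genes. Myb, a factor that maintains cycling progenitors, had 678 and 766 CPM at 48 h, against 960 and 968 CPM at 0 h. Its log2 change of -0.42 ± 0.14 (SE) was called (adjusted p = 0.017, edgeR), and without either 0 h library or without 48 h library A the adjusted p was 0.0541, 0.0615 and 0.137. The 4 members that rose were Prom1, Runx1, Fli1 and Ikzf2. Prom1, the surface protein prominin-1, had 21.8 and 17.8 CPM at 48 h, against 0.0498 and 0.0202 CPM at 0 h (log2 change 9.09 ± 0.32, SE).

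A group of B-lymphoid genes that was read at 0 h was largely lost. Of 15 tested, 13 fell and 2 rose, with a median log2 change of -4.30. Ebf1, a B-lineage factor (chr11:44617317-45008091), had 0.457 and 0.676 CPM at 48 h, against 129 and 124 CPM at 0 h (log2 change -7.79 ± 0.15, SE; adjusted p = 1.5e-18, edgeR). Rag1 and Rag2, neighbouring genes of the antigen receptor recombinase, fell together. Rag1 had no read at 48 h, against 44.3 and 35.6 CPM at 0 h, at least 1314-fold lower, and Rag2 had 0.769 and 0.773 CPM, against 120 and 125 CPM. Igll1, a chain of the surrogate light chain, had 6.92 and 5.85 CPM at 48 h, against 238 and 232 CPM at 0 h. Pax5, which defines committed B cells, was below 1 CPM on average at both times. The 2 members that rose were Ighm and Blnk. Ighm, named after its values were seen, had 54.4 and 42.7 CPM at 48 h, against 0.797 and 0.688 CPM at 0 h.

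**Figure D4:**
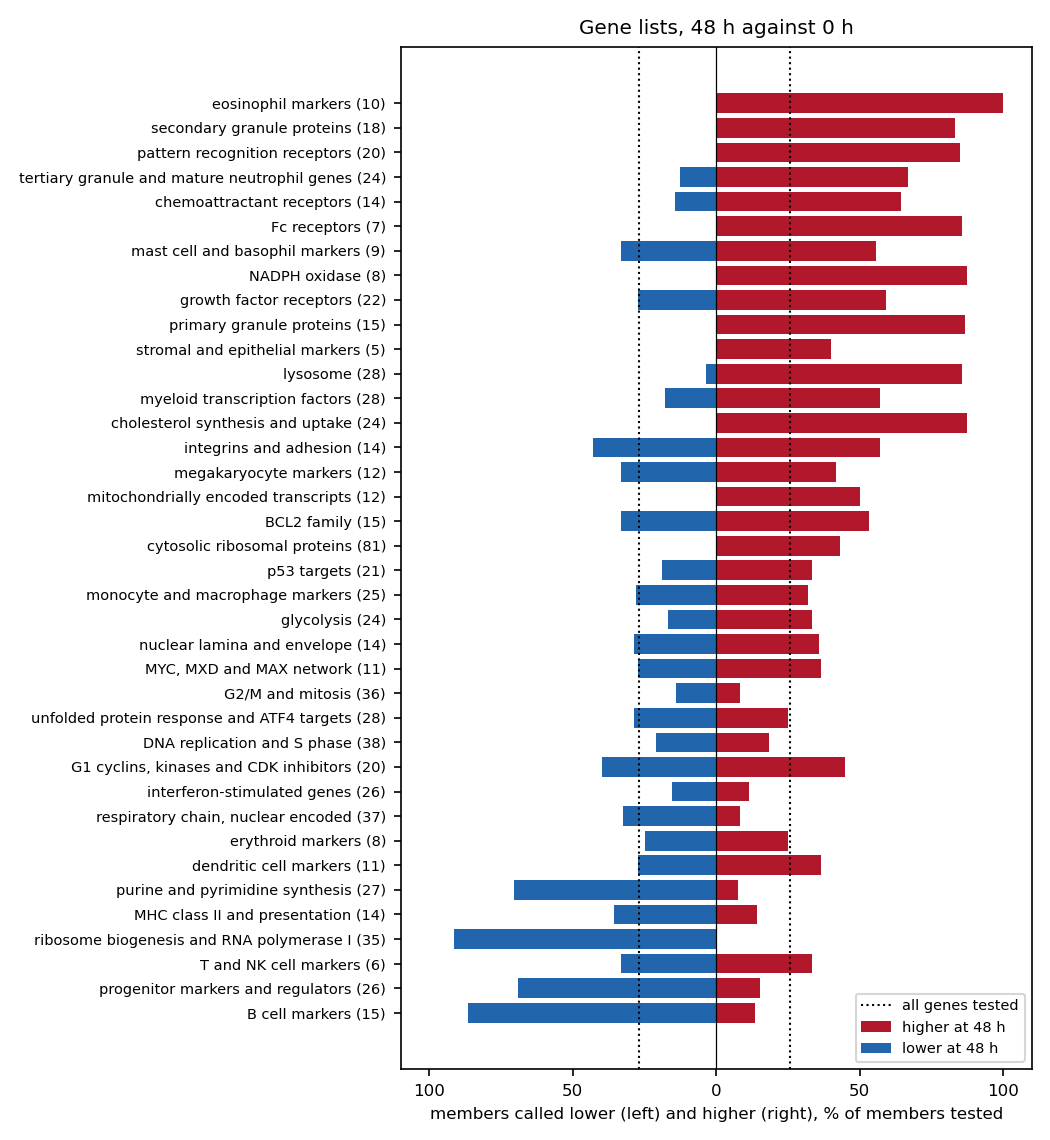
Share of the members tested of each of 38 gene lists that was called higher (red, to the right) and lower (blue, to the left) at 48 h against 0 h, in percent, with the number tested in brackets and the lists ordered by median log2 change. Dotted lines mark the shares over all genes tested, 25.8% higher and 26.8% lower, and the bars of the G2/M and S phase lists fall inside them.

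Genes of the dividing cell mostly changed by less than 1.5-fold. Of the 38 genes of DNA replication and S phase, 23 were not called, 8 fell and 7 rose, and the median log2 change was -0.07. Of the 36 genes of G2/M and mitosis, 28 were not called, 5 fell and 3 rose, and the median was -0.02. The share called was 39.5% and 22.2%, below the 52.6% of all genes. Mki67, a marker of cycling cells (chr7:135689784-135716361), had 635 and 675 CPM at 48 h, against 564 and 557 CPM at 0 h (log2 change 0.22 ± 0.13, SE; adjusted p = 0.15, edgeR). Top2a, the DNA topoisomerase of dividing cells, had 759 and 866 CPM at 48 h, against 840 and 885 CPM at 0 h, with overlapping libraries. Because a missed threshold does not show equal levels, the intervals were counted as well. The 95% interval of the change lay inside 1.5-fold in either direction for 32 of the 36 G2/M genes (88.9%) and 27 of the 38 S phase genes (71.1%), against 32.2% of all genes tested.

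Among S phase genes the log2 changes ran from -0.59 for Pole, the catalytic subunit of DNA polymerase epsilon, to 0.80 for Tk1, thymidine kinase. Tk1 had 103 and 82.2 CPM at 48 h, against 54.8 and 51.4 CPM at 0 h, and Cdc45, a part of the replicative helicase, had 122 and 115 CPM, against 72.4 and 72.4 CPM. Among G2/M genes they ran from -0.55 for Nek2, a centrosomal kinase, to 0.49 for Nusap1, a spindle protein. Ccnb1, cyclin B1, had 202 and 216 CPM at 48 h, against 264 and 285 CPM at 0 h, and its call was lost without 0 h library B or 48 h library A (adjusted p = 0.0705 and 0.0732, edgeR). Leaving out 1 library moved the number of G2/M genes called higher to as low as 1, without library A of 0 h or of 48 h, and of those called lower to 3, 2 and 1 without 0 h library A, 0 h library B and 48 h library A. For the S phase genes, leaving out library B of 0 h or library A of 48 h left 4 or 3 that rose, and leaving out library A of 0 h or library B of 48 h left 5 or 4 that fell.

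The regulators of entry into the cycle did change. Of 20 G1 cyclins, kinases and inhibitors tested, 9 rose, 8 fell and 3 were not called. Ccnd2, cyclin D2, had 86.1 and 106 CPM at 48 h, against 350 and 321 CPM at 0 h (log2 change -1.81 ± 0.21, SE). Cdk6, its partner kinase, had 610 and 722 CPM at 48 h, against 1204 and 1229 CPM at 0 h, and Cdk4 had 355 and 329 CPM, against 587 and 557 CPM. Cyclin D2 and both of its kinases were thus lower in every 48 h library. Cdkn1b, which encodes the inhibitor p27, had 31.4 and 32.0 CPM at 48 h, against 14.8 and 16.9 CPM at 0 h (log2 change 1.00), whereas Cdkn1a, which encodes p21, had 8.57 and 8.50 CPM, against 26.4 and 24.9 CPM (log2 change -1.59).

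Growth-related genes were lower. Myc, a factor that drives ribosome production and cell growth (chr15:61985391-61990374), had 257 and 288 CPM at 48 h, against 481 and 479 CPM at 0 h (log2 change -0.82 ± 0.11, SE). Of 11 genes tested of the network of MYC, MXD and MAX, 4 rose, 3 fell and 4 were not called, a share called of 63.6% against 52.6% of all genes. Mlx, a MAX-like partner, rose by 2.32, and Mxd1, Mxd4 and Mxi1, antagonists of MYC, by 0.65, 0.99 and 0.71 on the log2 scale. Mycn and Mga, a MAX partner, fell by 6.11 and 0.33 with Myc, and Max, Mnt, Mxd3 and Mlxip were not called. Of 35 genes of ribosome biogenesis and RNA polymerase I, 32 fell, none rose, and Nhp2, Nop10 and Pes1 were not called, with a median log2 change of -0.63. Mybbp1a, a nucleolar protein, had 386 and 391 CPM at 48 h, against 875 and 770 CPM at 0 h (log2 change -1.08), and Polr1b, a core subunit of RNA polymerase I, had 65.3 and 69.9 CPM, against 146 and 133 CPM (log2 change -1.04). The summed level of the list was 7016 and 7807 CPM at 48 h, against 11920 and 12670 CPM at 0 h.

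Cytosolic ribosomal proteins did not follow ribosome biogenesis. The share called was 43.2%, below the 52.6% of all genes. Of 81 genes, 35 rose and none fell, with a median log2 change of 0.29. This count rested on single libraries, since leaving out library A of either 0 h or 48 h lowered it to 2. Rpl9 had 1921 and 1821 CPM at 48 h, against 930.0 and 1161 CPM at 0 h (log2 change 0.84). These genes have many processed pseudogenes, so how reads were assigned among copies is uncertain.

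Of 27 purine and pyrimidine synthesis genes, 19 fell, 2 rose and 6 were not called. Cad, which starts pyrimidine synthesis, had 189 and 184 CPM at 48 h, against 501 and 374 CPM at 0 h (log2 change -1.23), and Impdh1, the guanine nucleotide enzyme, fell by 1.35 on the log2 scale. The 2 genes that rose were Adssl1 and Ctps2, and Adssl1 had 285 and 237 CPM at 48 h, against 65.2 and 56.6 CPM at 0 h.

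Cholesterol synthesis and uptake genes rose in 21 of 24 members, and none fell; Hmgcs1 and Srebf2 were among those not called, and the median log2 change was 0.68. Fdps, which makes farnesyl diphosphate, had 15.7 and 13.5 CPM at 48 h, against 2.54 and 2.55 CPM at 0 h (log2 change 2.52 ± 0.15, SE). Sc5d, a late sterol desaturase, had 211 and 214 CPM at 48 h, against 49.9 and 54.2 CPM at 0 h (log2 change 2.03). Between 48 h and 120 h none of the 24 rose and 20 fell. Of 24 glycolysis genes, 8 rose, 4 fell, or 2 without 48 h library B, and 12 were not called. The share called, 50%, was near the 52.6% of all genes. Those that rose included Gpi1, the phosphoglucose isomerase, at 1701 and 1439.8 CPM at 48 h, against 778 and 697 CPM at 0 h. For the next lists the share called was 40.5% for the nuclear-encoded respiratory chain and 50% for mitochondrially encoded transcripts, against 52.6% of all genes. Of 37 nuclear-encoded respiratory chain genes, 3 rose, or 1 without library A of 0 h or of 48 h, 12 fell and 22 were not called. Of 12 mitochondrially encoded transcripts tested, 6 rose, a count that dropped to between 1 and 3 without either 48 h library or without 0 h library A.

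Survival genes changed in both directions: of 15 in the BCL2 family tested, 8 rose, or 5 without 0 h library A, and 5 fell. Bcl2 had 17.9 and 21.4 CPM at 48 h, against 84.0 and 85.2 CPM at 0 h (log2 change -2.10 ± 0.14, SE), while Mcl1, which sustains neutrophils, was not called. In the nuclear envelope list, with 5 of 14 higher and 4 lower, Syne1, an outer membrane linker protein, had 145 and 133 CPM at 48 h, against 3.86 and 4.11 CPM at 0 h (log2 change 5.13). Lmnb1, lamin B1, fell by 0.65. Of 21 p53 targets tested, 7 rose, 4 fell and 10 were not called, so 52.4% were called against 52.6% of all genes, and 4 rose without library A of 0 h or of 48 h. Of 28 genes of the unfolded protein response and of ATF4, 7 rose, 8 fell and 13 were not called. The share called, 53.6%, was near the 52.6% of all genes. The members that rose included Xbp1, a factor of secretory cells, at 198 and 187 CPM at 48 h, against 54.1 and 56.3 CPM at 0 h. Those that fell included the amino acid genes Phgdh and Slc7a11, with log2 changes of -1.22 and -1.83.

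Markers of other cell types were read beside these results. Of 25 monocyte and macrophage markers tested, 8 rose, 7 fell and 10 were not called. The share called was 60%, not far from the 52.6% of all genes. Their summed level was 1044 and 1012 CPM at 48 h, against 1570 and 1620 CPM at 0 h. Csf1r and Ly6c2 had the largest rises of the list, 6.63 and 6.81 on the log2 scale. Gas6, a ligand of receptor kinases on macrophages, had 0.333 and 0.0966 CPM at 48 h, against 117 and 92.8 CPM at 0 h (log2 change -8.94 ± 0.23, SE). In this list 3 genes had no read at 48 h or 0 h. Of 9 mast cell and basophil markers tested, 5 rose and 3 fell: Hdc, histidine decarboxylase, had 143 and 128 CPM at 48 h, against 9.81 and 12.0 CPM at 0 h, and Mcpt8, a basophil protease, had 14.1 and 15.5 CPM, against 59.0 and 66.7 CPM. The summed levels of dendritic cell markers were 97.5 and 91.1 CPM at 48 h, against 432 and 385 CPM at 0 h. Most of the 0 h sums was Flt3, also in the progenitor list, with 332 and 290 CPM. For T and NK cell markers, of which 6 of 17 had enough counts to test, the summed levels were 13.16 and 12.97 CPM at 48 h. They were 30.8 and 29.5 CPM at 0 h. Most of the 0 h sums was Tcf7, with 24.2 and 22.8 CPM, against 5.55 and 6.38 CPM at 48 h. For megakaryocyte markers the sums were 533 and 507 CPM at 48 h, against 249 and 241 CPM at 0 h, with 5 of 12 tested higher and 4 lower, or 2 lower without library B of 0 h or of 48 h, and Pf4, a defining member, not called. For erythroid markers the sums were 1097 and 1246 CPM at 48 h, against 754 and 857 CPM at 0 h. Most of each sum was 1 gene, Tfrc, the transferrin receptor, with 1086 and 1235 CPM at 48 h, against 658 and 758 CPM at 0 h. The share of erythroid markers called was 50%, near the 52.6% of all genes. Of 8 erythroid markers tested, 2 rose and 2 fell, with Klf1 not called, and 1 fell without either 0 h library or without 48 h library B. For stromal and epithelial markers the sums were 374 and 354 CPM at 48 h, against 166 and 156 CPM at 0 h, and of 5 tested, 2 rose and none fell, or 1 fell without 0 h library A. Most of the stromal and epithelial sums was Pecam1, also in the integrin and adhesion list, with 359 and 339 CPM at 48 h, against 153 and 144 CPM at 0 h. The part of these other cell types in the results was not tested.

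Interferon-stimulated genes had a far lower summed level at both times than at 120 h, where it was 13370 and 11990 CPM. The share called between 48 h and 0 h was 26.9%, below the 52.6% of all genes. Of 26, 3 rose, or 5 with no filter on low counts, 4 fell and 19 were not called, and the sum was 162 and 154 CPM at 48 h, against 193 and 212 CPM at 0 h. Ifitm3, a membrane protein that restricts viral entry, had 6.94 and 5.43 CPM at 48 h, against 90.7 and 105 CPM at 0 h (log2 change -3.98). It was a large part of the 0 h sum. Class II genes H2-Aa, H2-Ab1 and Cd74 were below 0.1 CPM on average at both times. Lyz2, the lysozyme gene of the reporter's name, had no read at 48 h or 0 h. A table row whose identifier is not a mouse gene had 79.8 and 51.2 CPM at 48 h, against 0.722 and 0.769 CPM at 0 h.

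To place 48 h within the course, it was set against 24 h and against 120 h in the same fit. Between 48 h and 24 h, 5327 genes were called (36.4%), 2816 higher (19.3%) and 2511 lower (17.2%) at 48 h. Between 120 h and 48 h, 10928 were called (74.8%), 5369 higher (36.7%) and 5559 lower (38%) at 120 h. Both comparisons share the 48 h libraries with the first. Genes that rose mostly after 24 h included Chil3, which averaged 7.46 CPM at 24 h (log2 change 6.10 at 48 h over 24 h), and Cybb. Cebpe, Mpo and Kit were not called between these 2 times. Ribosome biogenesis genes fell between 24 h and 48 h in 34 of 35 members, while 33 of 36 G2/M genes and 33 of 38 S phase genes were not called.

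After 48 h the cell cycle genes fell: all 36 G2/M genes and 37 of 38 S phase genes were lower at 120 h, with median log2 changes of -3.16 and -3.48. The summed S phase level in CPM was 7248 and 7146 at 48 h, then 6253 and 6539 at 72 h, then 2915 and 3577 at 96 h, then 1024 and 1180 at 120 h. The primary and secondary granule lists parted. Of the primary list, 9 of 15 were lower and 6 higher at 120 h than at 48 h, with Mpo at 61.2 and 91.5 CPM at 120 h, against 9634 and 8215 CPM at 48 h (log2 change -6.87). Of the secondary list, 16 of 18 were higher at 120 h, Slpi was lower and Ltb4r1 was not called, with a median log2 change of 5.91. Ltf had a log2 change of 11.21 over 48 h, and S100a9, of the mature set, one of 10.16. All 26 interferon-stimulated genes and all 25 monocyte and macrophage markers tested were higher at 120 h than at 48 h, where the median over all genes was -0.07. Mpo, Elane, Prtn3, Ms4a3 and Prss57 were called higher at 48 h than at 0 h and than at 120 h, as were 8 of the 10 eosinophil genes.

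**Figure D5:**
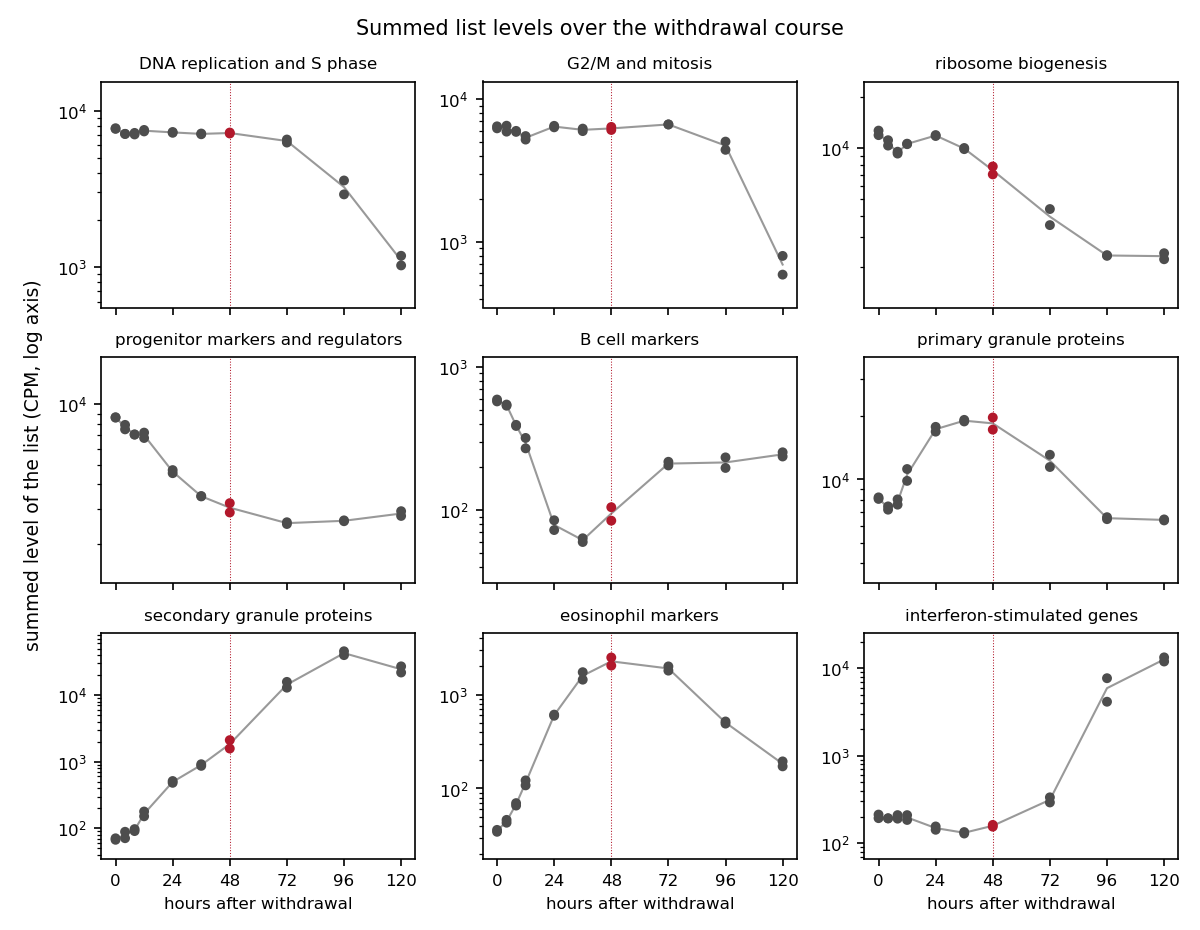
Summed level in CPM (log axis) of 9 gene lists in each library against hours after withdrawal, with the 48 h libraries in red and a grey line through the means. At 48 h the replication and mitosis lists stand near their starting levels, and the interferon-stimulated list has not yet risen (162 and 154 CPM). The summed eosinophil level is at its peak (2486 and 2038 CPM), most of it Prg2 and Prg3.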

How the data were processed

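The authors deposited a table of raw read counts per gene, with whole-number values and no normalization. Per the submitters' processing notes, STAR 2.4.2a and Picard were used with the mm10 build; per the labels' protocols, libraries were stranded, poly(A)-selected and sequenced from both ends. The counting program, strand setting and annotation are not given in the sources used here, so overlapping and antisense genes are uncertain. The 4 summary lines of the table were left out of library sizes and tests. Library letters A and B are not tied to replicate numbers by the labels.

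Genes passing filterByExpr (minimum count 10) were scaled by TMM and fitted with edgeR 4.0.16 in R 4.3.3 (limma 3.58.1), with time as a factor over the 20 withdrawal libraries. Calls used the quasi-likelihood F-test with Benjamini-Hochberg adjusted p below 0.05 over all 14615 genes tested, in 3 comparisons. The adjusted p-values measure spread between 2 libraries per time. Log2 CPM values for the principal components had a prior count of 2. Symbols came from a table of Ensembl identifiers, with 44585 of 45318 matched, and positions from GENCODE M21 (GRCm38). Alternatives were DESeq2 1.42.0, size factors in place of TMM, no filter, the replicate block, a fit of 2 times only and leaving out each library. The scripts were tested on simulated counts.

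Named genes were 30 anchors, the 12 highest and 12 lowest log2 changes at 48 h against 0 h (6 and 6 in the other comparisons) among called genes whose log2 CPM averaged 3 or more, and up to 4 called members of each of 38 lists with at least 1 CPM, in all 183 genes. Other genes are named where a count left few members or where they are markers of a stage. The members and lists were chosen with earlier results of these data known. No set test was run, so lists are described by counts and medians. A few members of the lists are counted but not reported by name here.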

Additional observations from a re-analysis of the deposited data

How the results depend on the processing

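The number of genes called at 48 h against 0 h, 7683, was 7703 with size factors in place of TMM, 7614 with no filter on low counts, 7394 with DESeq2, 7385 with only the 2 times in the fit, and 6269 to 6903 when 1 library was left out. At 48 h against 24 h, 5327 genes were called, and 3507 to 4559 when 1 library was left out, the lowest without 48 h library A. At 120 h against 48 h, 10928 genes were called, and 9937 to 10432 when 1 library was left out. The lone library left at a time was assumed to vary like the other times. With the letters A and B as a replicate block, 7746 genes were called at 48 h against 0 h, 5393 at 48 h against 24 h and 10934 at 120 h against 48 h. The differences between library A and B correlated by 0.102 between 48 h and 0 h, -0.0977 between 48 h and 24 h and 0.0156 between 120 h and 48 h. Over all 45 pairs of the 10 times these correlations ran from -0.158 to 0.215 with a median of 0.0138, and 7 were over 0.1, while library A scored above library B on the first principal component at 9 of 10 times. The labels do not say that a letter marks a shared culture or batch, so the fit without the block was kept. Of 1637 values of named genes under these alternatives, 1593 kept their direction and side of the threshold, 38 lost a call, in 15 genes, 6 gained one, in Bhlha15, Ctsg and Mmp8, and none changed sign. Calls with small changes, such as those of Myb, Gfi1, Gfi1b, Ccnb1, Kif20a and several ribosomal and mitochondrial transcripts, were among those lost, and Ly6g, at the limit of the counts, lost its call without either 0 h library or without 48 h library B. Among list counts, the 35 ribosomal protein genes that rose became 54 with no filter and 2 without 0 h library A or 48 h library A. The cause of these shifts was not tested. With 36661334 or more gene reads per library, a gene with no read at a time is below about 3 counts over 2 libraries, and this covers counting error only.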
